A study of Mus musculus with 12 samples.

Results

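The glutathione S-transferases described here are 10 mouse genes, Gsta2, Gsta3, Gsta4, Gstm1, Gstm2, Gstm3, Gstm4, Gstm6, Gstp1 and Gstt1. Each was read from the transcript cluster (the array's set of probes for a transcript) annotated to that gene alone, and where a gene had several, from the cluster of highest mean over the 12 arrays. By this rule 9 of the 10 genes had a cluster, out of 19939 genes in all, and all 9 were among the 13977 genes tested. Gsta2 had none of its own: its 4 clusters are annotated jointly to Gsta1, Gsta2, Gm3776 and Gm10639, and they are described separately.

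Transcript levels were measured in whole liver of mice aged 2 weeks, on 3 arrays for each of 4 genotypes. Stat3Δhc Mdr2-/- liver carried the Stat3 deletion and the Mdr2 knockout, and Stat3Fl/Fl Mdr2-/- liver carried floxed Stat3 and the Mdr2 knockout. Stat3Δhc liver carried the Stat3 deletion alone, and Stat3Fl/Fl liver, with floxed Stat3, was the control. Mdr2 is the phospholipid transporter of the bile canaliculus, encoded by Abcb4, and its loss in mice gives bile that injures the ducts. Stat3 encodes a transcription factor of interleukin 6 and growth hormone signalling. The labels give no treatment and do not name the Cre driver of the deletion. They also do not say whether the arrays are separate animals, so p-values measure only the spread between these samples, which may be technical. In whole tissue, fewer cells of a type and less RNA per cell cannot be told apart.

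Glutathione S-transferases join the tripeptide glutathione to electrophilic compounds, which are then exported from the cell and excreted. The cytosolic enzymes are dimers grouped into classes by sequence, among them Alpha (Gsta), Mu (Gstm), Pi (Gstp) and Theta (Gstt), and Alpha and Mu enzymes are abundant in hepatocytes. In mouse liver many of these genes are targets of the transcription factor Nrf2, which binds antioxidant response elements, and of the nuclear receptor CAR. The Mu genes lie in tandem on chromosome 3, in the order Gstm5, Gstm7, Gstm6, Gstm3, Gstm2, Gstm1 and Gstm4.

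Promoter sequences (250 bases before to 50 after the annotated start) were taken from RefSeq on GRCm38.p6 for 9 of the 10 genes; the table held no entry for Gsta4. Each was searched on both strands for the antioxidant response element core TGACNNNGC and the STAT site core TTCNNNGAA, which do not overlap in any window printed here. The first was found for 1 of the 9 genes, against 14.0% of 27025 genes, and the second for 1 of the 9, against 9.55%. The 4 windows below are those of Gsta3 and Gstm6, which hold these matches, and those of Gsta1 and Gsta2, whose transcripts share the clusters that changed most. Capitals mark the antioxidant core in Gsta3 and the STAT core in Gstm6 and Gsta1. A match is a description of letters and no evidence of binding.
Gsta1 (chr9:78230419-78230718, plus strand): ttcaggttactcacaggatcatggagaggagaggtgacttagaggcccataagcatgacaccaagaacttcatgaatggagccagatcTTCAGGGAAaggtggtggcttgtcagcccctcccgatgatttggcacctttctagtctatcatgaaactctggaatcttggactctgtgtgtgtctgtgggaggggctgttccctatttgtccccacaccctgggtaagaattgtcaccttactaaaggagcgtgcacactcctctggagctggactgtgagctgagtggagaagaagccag
Gsta2 (chr9:78347096-78347395, minus strand): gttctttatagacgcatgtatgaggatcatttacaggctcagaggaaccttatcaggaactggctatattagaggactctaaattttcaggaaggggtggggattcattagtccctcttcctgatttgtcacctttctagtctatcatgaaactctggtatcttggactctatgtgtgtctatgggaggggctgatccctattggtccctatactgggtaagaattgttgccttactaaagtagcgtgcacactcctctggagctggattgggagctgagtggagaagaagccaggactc
Gsta3 (chr1:21240335-21240634, plus strand): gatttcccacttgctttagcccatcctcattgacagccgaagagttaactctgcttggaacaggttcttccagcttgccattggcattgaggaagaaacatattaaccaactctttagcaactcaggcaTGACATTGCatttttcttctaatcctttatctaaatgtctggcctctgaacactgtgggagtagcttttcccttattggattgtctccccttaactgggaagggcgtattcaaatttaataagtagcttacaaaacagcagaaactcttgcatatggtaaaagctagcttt
Gstm6 (chr3:107943349-107943648, minus strand): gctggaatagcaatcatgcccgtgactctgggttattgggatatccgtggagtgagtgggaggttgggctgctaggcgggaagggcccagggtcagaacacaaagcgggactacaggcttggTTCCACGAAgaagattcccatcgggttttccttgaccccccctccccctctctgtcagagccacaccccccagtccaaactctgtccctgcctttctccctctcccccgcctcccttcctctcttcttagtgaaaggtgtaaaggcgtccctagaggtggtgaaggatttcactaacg
The Gstm6 window is 1 of 3 in the table, and neither core was found in its other two. The windows of Gsta1 and Gsta2 were identical at 238 of 315 aligned positions (75.6%). The next closest pair, Gsta1 and Gsta3, was identical at 54.7%.

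In each of the 12 arrays Stat3 went with the title. Its signal averaged 7.91 ± 0.18 in Stat3Δhc Mdr2-/- liver, 9.39 ± 0.14 in Stat3Fl/Fl Mdr2-/- liver, 7.71 ± 0.02 in Stat3Δhc liver and 9.23 ± 0.07 in Stat3Fl/Fl liver (log2 signal, SD, n = 3 each). For the Mdr2-/- arrays 1 label field, the source name, gives the opposite Stat3 genotype to the title, and the values go with the title. Hepatocyte markers averaged between 12.01 and 12.64 in every array, with albumin between 13.6 and 13.9. The median log2 signal of an array lay between 6.01 and 6.14, and arrays of 1 genotype correlated at 0.98 to 0.991.

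Other measured features moved with the genotypes, and counts of markers called stand against the shares of all genes called. With Mdr2 loss these shares were 6.9% up and 10.5% down in Stat3Δhc liver and 7.12% and 5.65% in floxed liver. With Stat3 deletion they were 1.87% up and 3.9% down on the knockout and 1.51% and 1.07% without it. With Mdr2 loss, 3 of 4 tested erythroid markers fell in Stat3Δhc liver and 2 of 4 in floxed liver, among them Alas2 (-0.80 and -1.16, adjusted p = 0.00903 and 0.00121). The erythroid mean lay between 6.64 and 6.77 in Stat3Δhc Mdr2-/-, 6.76 and 6.93 in Stat3Fl/Fl Mdr2-/-, 7.14 and 7.17 in Stat3Δhc and 7.28 and 7.497 in Stat3Fl/Fl arrays. Of 7 stellate markers, 3 rose and 4 fell with Mdr2 loss in Stat3Δhc liver, so the list had no single direction there. In floxed liver 2 fell, Des and Acta2, which were also among the falls in Stat3Δhc liver. Des had -1.61 in Stat3Δhc and -1.60 in floxed liver, and Acta2 -1.15 and -0.87. The cell type behind these 2 falls was not tested. The 3 arrays of Stat3Fl/Fl Mdr2-/- liver and array A of Stat3Δhc Mdr2-/- liver had high Xist, the other 8 high Y-linked transcripts. In floxed liver the sex pattern thus goes with the Mdr2 knockout, and sex and genotype cannot be told apart there. The words raised and lowered below describe differences between these groups of arrays. All 8 skeletal muscle markers fell with Mdr2 loss in both Stat3 backgrounds: their mean lay between 5.53 and 5.78 in Stat3Δhc Mdr2-/-, 5.32 and 5.56 in Stat3Fl/Fl Mdr2-/-, 8.52 and 9.01 in Stat3Δhc and 8.57 and 9.37 in Stat3Fl/Fl liver. The mean of 6 exocrine pancreas markers was 6.12, 8.48 and 10.5 in Stat3Δhc arrays A, B and C and 5.90, 9.41 and 7.68 in Stat3Fl/Fl arrays A, B and C, against 5.728 to 6.1004 in the Mdr2-/- arrays. On the knockout, the mean of 11 hepatocyte markers lay between 12.21 and 12.38 in Stat3Δhc Mdr2-/- arrays, against 12.01 and 12.16 in Stat3Fl/Fl Mdr2-/- arrays, with 2 of 11 called up. There the macrophage mean was 8.56 to 8.85 in Stat3Δhc Mdr2-/- arrays, against 8.91 to 9.05 in Stat3Fl/Fl Mdr2-/- arrays (2 of 7 called down), and the stellate mean 8.69 to 8.79, against 8.98 to 9.02 (2 of 7 called down). The endothelial mean was 8.76 to 9.0002, against 9.14 to 9.33 (0 of 6 called). Without the knockout, the hepatocyte mean was 12.53 to 12.64 in Stat3Δhc arrays, against 12.11 to 12.45 in Stat3Fl/Fl arrays, also with 2 of 11 called up. With Mdr2 loss 1 of 11 hepatocyte markers rose and 2 fell in Stat3Δhc liver, and 2 fell in floxed liver. Serpina1d fell in both (-2.82 and -1.96). Of 6 tested bile duct markers, only Prom1 was called with Stat3 deletion, down on the knockout and without it (-1.73 and -1.08). Mdr2 loss lowered 2 of these 6 in Stat3Δhc liver and 0 in floxed liver. The part of these features in the results below was not tested. For the sex pattern, values with it as a covariate follow the accounts of the genes.

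On the Mdr2 knockout, Stat3 deletion went with higher Gsta3, Gsta4, Gstp1 and Gstt1, by 1.33- to 1.43-fold, and no transferase fell. The test called 4 of the 9 genes up and 0 down at an adjusted p under 0.05 (limma with Benjamini-Hochberg adjustment over all 13977 genes), where 1.87% of all genes were called up and 3.9% down. The median log2 change was 0.41 over the 9 genes and -0.03 over all genes. Without the Mdr2 knockout, Stat3 deletion went with higher Gstm6, Gstm1, Gstm3, Gstm2, Gstt1 and Gsta4, by 1.36- to 2.51-fold. Here 6 of the 9 were called up and 0 down, where 1.51% of all genes were called up and 1.07% down, and the medians were 0.52 and -0.01. Gsta4 and Gstt1 were called in both comparisons. These share no array but take their spread from the same fit over all arrays, so the calls are not independent. In a fit of the compared groups alone, Gsta4 missed the threshold in both (adjusted p = 0.0706 on the knockout and 0.0627 without it). There Gstt1 missed the threshold on the knockout (adjusted p = 0.0664) and stayed called without the knockout.

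**Figure D1:**
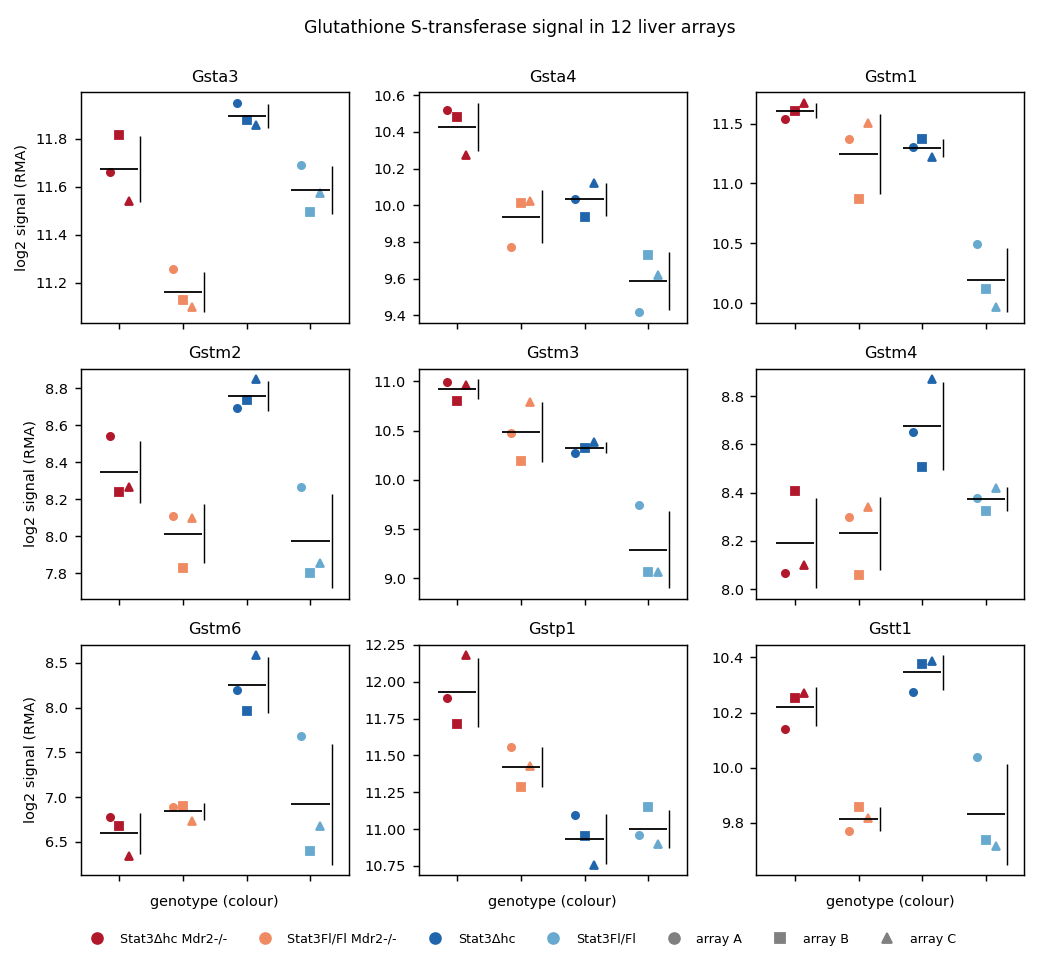
Log2 signal (RMA, y axis) of the 9 transferases in the 4 genotypes (colour, x axis) with array letters as symbols, the mean as a horizontal bar and ± 1 SD as a vertical bar. Gstm6 stands highest in Stat3Δhc liver (mean 8.25), and Gstp1 in Stat3Δhc Mdr2-/- liver (mean 11.93).

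Among the Alpha genes, Gsta3 encodes an enzyme that in mice conjugates the activated form of aflatoxin. Its log2 signal was 11.66, 11.82 and 11.54 in Stat3Δhc Mdr2-/- arrays A, B and C, against 11.26, 11.13 and 11.10 in Stat3Fl/Fl Mdr2-/- arrays. It was 11.95, 11.88 and 11.86 in Stat3Δhc arrays, against 11.69, 11.49 and 11.57 in Stat3Fl/Fl arrays. Every Stat3Δhc value lay above its floxed counterparts in both backgrounds, and the Stat3Fl/Fl Mdr2-/- arrays were the lowest of the 12. The rise with Stat3 deletion on the knockout was 1.43-fold (log2 change 0.51, SE 0.09, adjusted p = 0.0085). Without the knockout the log2 change was 0.31 (SE 0.09, adjusted p = 0.0943). Mdr2 loss lowered Gsta3 in floxed liver by 1.34-fold (log2 change -0.42, SE 0.09, adjusted p = 0.00885), and in Stat3Δhc liver the change was -0.22 (SE 0.09, adjusted p = 0.111). From the highest, the genotypes ran Stat3Δhc, Stat3Δhc Mdr2-/-, Stat3Fl/Fl and Stat3Fl/Fl Mdr2-/-, with overlap only between the middle pair.

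Gsta4, whose enzyme conjugates 4-hydroxynonenal and related products of lipid peroxidation, was 10.52, 10.48 and 10.28 in Stat3Δhc Mdr2-/- arrays, against 9.77, 10.01 and 10.03 in Stat3Fl/Fl Mdr2-/- arrays. It was 10.04, 9.94 and 10.12 in Stat3Δhc arrays, against 9.42, 9.73 and 9.62 in Stat3Fl/Fl arrays. The double mutant arrays were the highest and the Stat3Fl/Fl arrays the lowest, and the 2 single mutants overlapped between them. Stat3 deletion raised it by 1.403-fold on the knockout (log2 change 0.49, SE 0.11, adjusted p = 0.0224) and by 1.36-fold without it (0.44, SE 0.11, adjusted p = 0.0495). Mdr2 loss raised it by 1.31-fold in Stat3Δhc liver (0.39, SE 0.11, adjusted p = 0.0261). In floxed liver the change was 0.35 (SE 0.11, adjusted p = 0.0509).

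Among the Mu genes, Gstm1 encodes the main Mu enzyme of rodent liver. Its log2 signal was 11.54, 11.61 and 11.67 in Stat3Δhc Mdr2-/- arrays, against 11.37, 10.87 and 11.50 in Stat3Fl/Fl Mdr2-/- arrays. In Stat3Δhc arrays it was 11.30, 11.37 and 11.22, against 10.49, 10.12 and 9.97 in Stat3Fl/Fl arrays. The 3 Stat3Fl/Fl arrays stood below the other 9, and the 2 single mutants overlapped. Stat3 deletion without the knockout raised Gstm1 by 2.15-fold (SE 0.16 on a log2 change of 1.11, adjusted p = 0.0035), and Mdr2 loss in floxed liver raised it by 2.08-fold (1.06, SE 0.16, adjusted p = 0.00099). With the other mutation already present, the changes were 0.36 for Stat3 deletion (SE 0.16, adjusted p = 0.16) and 0.31 for Mdr2 loss (SE 0.16, adjusted p = 0.177).

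Gstm3 had the same order of genotypes at its ends. It was 10.996, 10.80 and 10.96 in Stat3Δhc Mdr2-/- arrays, against 10.48, 10.19 and 10.79 in Stat3Fl/Fl Mdr2-/- arrays. In Stat3Δhc arrays it was 10.27, 10.33 and 10.39, against 9.75, 9.06 and 9.07 in Stat3Fl/Fl arrays. The gap between the double mutant and Stat3Fl/Fl Mdr2-/- liver was 0.01, so these groups all but touch, and Stat3Fl/Fl array A stood above its replicates. Stat3 deletion without the knockout raised Gstm3 by 2.05-fold (1.03, SE 0.18, adjusted p = 0.0102), and on the knockout the change was 0.43 (SE 0.18, adjusted p = 0.139). Mdr2 loss raised it by 2.29-fold in floxed liver (1.19, SE 0.18, adjusted p = 0.00099) and by 1.51-fold in Stat3Δhc liver (0.59, SE 0.18, adjusted p = 0.0377). A second cluster annotated to Gstm3 alone gave the same calls, with changes of 1.33, 0.41, 1.88 and 0.95 in that order of comparisons (SE 0.26 each).

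Gstm6 had the widest range of genotype means among the 9 genes, 1.65 log2 units. It was 6.77, 6.67 and 6.34 in Stat3Δhc Mdr2-/- arrays, against 6.89, 6.90 and 6.74 in Stat3Fl/Fl Mdr2-/- arrays. In Stat3Δhc arrays it was 8.20, 7.96 and 8.59, against 7.68, 6.40 and 6.68 in Stat3Fl/Fl arrays. The Stat3Δhc arrays stood above the other 9, which overlapped with one another, and Stat3Fl/Fl array A lay above its replicates. Stat3 deletion without the knockout raised Gstm6 by 2.51-fold (1.33, SE 0.26, adjusted p = 0.0204), and Mdr2 loss in Stat3Δhc liver lowered it by 3.14-fold (-1.65, SE 0.26, adjusted p = 0.00129). The change was -0.25 with Stat3 deletion on the knockout (SE 0.26, adjusted p = 0.54) and -0.08 with Mdr2 loss in floxed liver (SE 0.26, adjusted p = 0.885).

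Gstm2 was also highest in Stat3Δhc liver. It was 8.54, 8.24 and 8.27 in Stat3Δhc Mdr2-/- arrays, against 8.11, 7.83 and 8.10 in Stat3Fl/Fl Mdr2-/- arrays. In Stat3Δhc arrays it was 8.69, 8.74 and 8.85, against 8.27, 7.80 and 7.85 in Stat3Fl/Fl arrays. The 2 floxed genotypes overlapped and the other neighbours in the order did not. Stat3 deletion without the knockout raised it by 1.73-fold (0.79, SE 0.13, adjusted p = 0.00912), and Mdr2 loss in Stat3Δhc liver lowered it by 1.33-fold (-0.41, SE 0.13, adjusted p = 0.0474). Gstm4, the last gene of the tandem, passed the test once: Mdr2 loss in Stat3Δhc liver lowered it by 1.4003-fold (-0.49, SE 0.12, adjusted p = 0.015). It averaged 8.19 ± 0.19 in Stat3Δhc Mdr2-/-, 8.23 ± 0.15 in Stat3Fl/Fl Mdr2-/-, 8.68 ± 0.18 in Stat3Δhc and 8.37 ± 0.05 in Stat3Fl/Fl liver (SD, n = 3 each), with Stat3Δhc arrays above all others.

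Gstp1, the Pi class gene, encodes an enzyme that is low in normal rat hepatocytes and high in preneoplastic foci of rat liver. Its log2 signal was 11.89, 11.71 and 12.18 in Stat3Δhc Mdr2-/- arrays, against 11.56, 11.28 and 11.43 in Stat3Fl/Fl Mdr2-/- arrays. In Stat3Δhc arrays it was 11.10, 10.95 and 10.76, against 10.96, 11.15 and 10.90 in Stat3Fl/Fl arrays. The double mutant arrays were the highest, the Stat3Fl/Fl Mdr2-/- arrays came next, and the arrays without the knockout overlapped. Stat3 deletion raised Gstp1 by 1.42-fold on the knockout (0.50, SE 0.13, adjusted p = 0.0406), against a change of -0.07 without it (SE 0.13, adjusted p = 0.849). Mdr2 loss raised it by 1.99-fold in Stat3Δhc liver (0.99, SE 0.13, adjusted p = 0.000361) and by 1.34-fold in floxed liver (0.42, SE 0.13, adjusted p = 0.0499). In 2 further clusters, annotated to Gstp1 and Gstp2 together, Mdr2 loss in Stat3Δhc liver gave 0.75 in both (SE 0.12, adjusted p = 0.00121 and 0.00145). The other 2 changes called for Gstp1 did not pass the test in them, with adjusted p between 0.0605 and 0.095.

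Gstt1, a Theta class gene whose enzyme acts on small halogenated compounds, was 10.14, 10.25 and 10.27 in Stat3Δhc Mdr2-/- arrays, against 9.77, 9.86 and 9.82 in Stat3Fl/Fl Mdr2-/- arrays. In Stat3Δhc arrays it was 10.27, 10.38 and 10.39, against 10.04, 9.74 and 9.71 in Stat3Fl/Fl arrays. All 6 Stat3Δhc arrays lay above all 6 floxed arrays. Stat3 deletion raised Gstt1 by 1.33-fold on the knockout (0.41, SE 0.09, adjusted p = 0.0264) and by 1.43-fold without it (0.52, SE 0.09, adjusted p = 0.0143). With Mdr2 loss the changes were -0.12 in Stat3Δhc liver and -0.02 in floxed liver (adjusted p = 0.353 and 0.938).

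**Figure D2:**
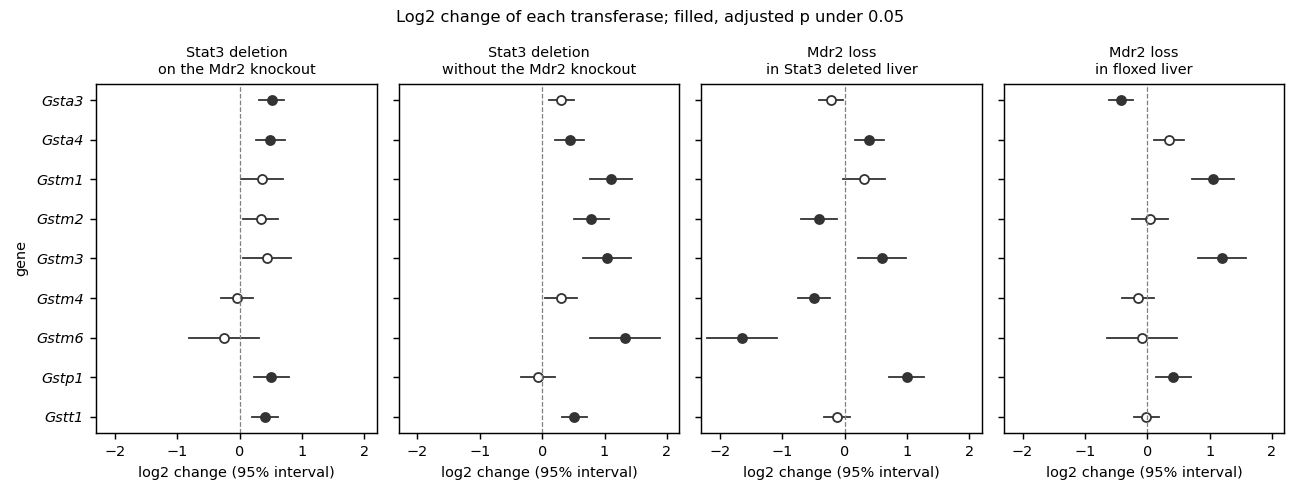
Log2 change of each transferase (x axis, point with 95% interval, filled where the adjusted p was under 0.05) in the 2 Stat3 and the 2 Mdr2 comparisons (panels), by gene (y axis). The filled points lie right of 0 in both Stat3 panels and on both sides of 0 in both Mdr2 panels, from -1.65 for Gstm6 to 0.99 for Gstp1 in Stat3Δhc liver.

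Mdr2 loss moved the genes in both directions. In Stat3Δhc liver 3 of the 9 rose (Gstp1, Gstm3 and Gsta4) and 3 fell (Gstm6, Gstm4 and Gstm2), where 6.9% of all genes were called up and 10.5% down. In floxed liver 3 rose (Gstm3, Gstm1 and Gstp1) and 1 fell (Gsta3), where 7.12% were called up and 5.65% down. The medians over the 9 genes were -0.12 and 0.04, against -0.02 and -0.0042 over all genes. Along the tandem, neighbours went opposite ways in Stat3Δhc liver: Gstm6 fell and Gstm3 rose beside it, then Gstm2 fell. Of these, Gstm3 stayed called in 6 of 12 fits with 1 array left out and Gstm2 in 4 of 12. These 2 comparisons share no array but take their spread from the same fit, and each shares arrays with both Stat3 comparisons. For Gstm6 and Gstm2, the Stat3Δhc arrays that gave the rise with Stat3 deletion are also those against which the fall with Mdr2 loss was measured.

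**Figure D3:**
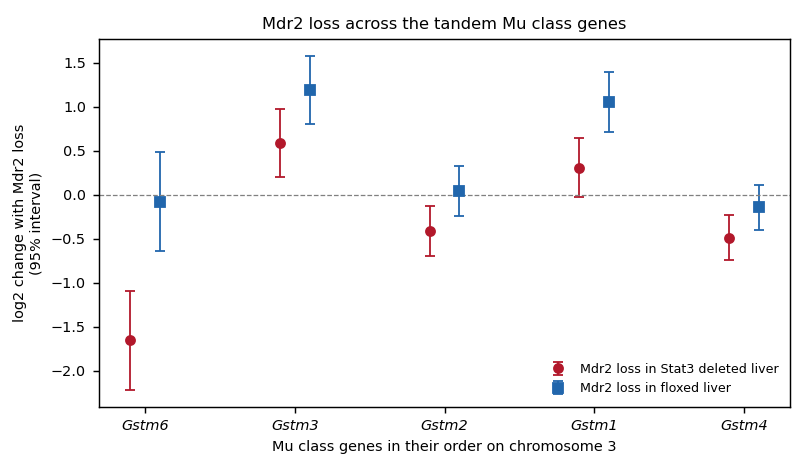
Log2 change with Mdr2 loss (y axis, point with 95% interval) of 5 Mu genes in their chromosomal order (x axis, spacing not to scale), in Stat3Δhc liver (circles) and in floxed liver (squares). Gstm3 and Gstm1 lie above 0 in floxed liver (1.19 and 1.06), and Gstm6 lies at -1.65 in Stat3Δhc liver and -0.08 in floxed liver.

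Whether Stat3 deletion acted differently on and off the Mdr2 knockout was tested as a difference of the 2 effects. None of the 9 genes passed, where 0.0143% of all genes were called up and 0.0572% down (2 and 8 genes, and 2360 with an unadjusted p under 0.05). The widest difference was that of Gstm6, -1.57 (SE 0.37, unadjusted p = 0.000939, adjusted p = 0.144), with a 95% interval from -2.37 to -0.78. Gstm1 had -0.75 (SE 0.22, adjusted p = 0.224) and Gstp1 0.57 (SE 0.18, adjusted p = 0.225). Without Stat3Fl/Fl array A, which stood above its replicates, Gstm6 passed (-1.95, SE 0.24, adjusted p = 0.00987, against 0.00987 to 0.728 over all settings). In that fit 64 genes were called over all genes, against 10 with every array. The array is named here for its own Gstm6 value, so this pass is no separate support for a difference. With the sex pattern as a covariate none of the 9 passed, where 0.0429% of all genes were called, and Gstm6 had -1.40 (SE 0.46, adjusted p = 0.728).

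The compared groups did not overlap in any of the 20 called changes, so leaving out 1 array could not turn their direction. It could move their size and their call, and some of them missed the threshold. On the knockout the changes ran from 0.44 to 0.58 for Gsta3, 0.41 to 0.56 for Gsta4, 0.38 to 0.61 for Gstp1 and 0.38 to 0.45 for Gstt1. Here 2 of the 9 were called without Stat3Fl/Fl Mdr2-/- array A or C or Stat3Δhc Mdr2-/- array B or C, and 1 without Stat3Fl/Fl Mdr2-/- array B. Over all genes, 555, 405, 351 and 466 were called in the first of these fits, in that order, and 302 in the last, against 806. Gsta3 was called without each array in turn. Gsta4 was lost without Stat3Δhc Mdr2-/- array B or Stat3Fl/Fl Mdr2-/- array A or B (adjusted p = 0.0515 to 0.0746). Gstt1 was lost without Stat3Δhc Mdr2-/- array B or C or any Stat3Fl/Fl Mdr2-/- array (0.0647 to 0.0793). Gstp1 was lost without Stat3Δhc Mdr2-/- array C, Stat3Fl/Fl Mdr2-/- array B or C, Stat3Δhc array A or B, or Stat3Fl/Fl array C (0.0513 to 0.133). With the sex pattern as a covariate none of the 9 was called on the knockout, where 0.265% of all genes were called in either direction (37, against 806 without the covariate). The changes were 0.50 for Gsta3, 0.58 for Gsta4, 0.47 for Gstp1 and 0.33 for Gstt1 (SE 0.13 to 0.19, adjusted p = 0.163, 0.158, 0.423 and 0.428). That covariate rests on array A of the double mutant, the one array that has the Xist pattern and the Stat3 deletion.

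Without the Mdr2 knockout, all 6 arrays had the Y-linked pattern. For this comparison the covariate fit gave the same values as the fit without array A of the double mutant. It is therefore no separate adjustment for sex. In it 5 of the 9 were called, where 2.35% of all genes were, and Gsta4 was lost at the same change of 0.44 (adjusted p = 0.0557). With 1 array left out the changes ran from 1.07 to 1.71 for Gstm6, 0.99 to 1.26 for Gstm1, 0.92 to 1.26 for Gstm3, 0.70 to 0.93 for Gstm2, 0.46 to 0.62 for Gstt1 and 0.36 to 0.51 for Gsta4. Here 4 of the 9 were called without Stat3Δhc array A or B, 3 without Stat3Δhc array C, and 1 (Gstm1) without Stat3Fl/Fl array B or C. Over all genes, 103, 131, 134, 76 and 69 were called in these fits, in that order, against 361 with every array. Gstm2 and Gstm3 were lost without Stat3Fl/Fl array B or C (adjusted p = 0.0577 to 0.0715), and Gstm6 also without Stat3Δhc array A or C (0.0684 to 0.1195 in all). Gstt1 was lost without Stat3Δhc array B or C or Stat3Fl/Fl array B or C (0.0568 to 0.0957). Gsta4 was lost without any of 10 arrays, all but Stat3Δhc Mdr2-/- array C and Stat3Fl/Fl Mdr2-/- array A (0.0557 to 0.172).

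With Mdr2 loss in Stat3Δhc liver, 4 of the 9 were called with the covariate, where 18.7% of all genes were. This fit too gave the same values as the fit without array A of the double mutant, and is no separate check. In this comparison 3 were called without any 1 Stat3Δhc array or without Stat3Δhc Mdr2-/- array B or C. Over all genes, 1405, 2375 and 1156 were called without Stat3Δhc array A, B or C, against 2431 with every array. Without Stat3Δhc Mdr2-/- array B or C these counts were 2008 and 1537. Without array A of the double mutant, which leaves Y-linked arrays alone, Gstp1 rose by 1.01 and Gstm6, Gstm2 and Gstm4 fell by 1.74, 0.51 and 0.42 (adjusted p = 0.00149, 0.00344, 0.028 and 0.043). Gsta4 was lost without it (adjusted p = 0.0639), as it was without Stat3Δhc Mdr2-/- array B or Stat3Δhc array A or B (0.0639 to 0.0711). Gstm3 was lost without any 1 of the 6 compared arrays (0.0519 to 0.106). Gstm4 was lost without Stat3Δhc Mdr2-/- array C or Stat3Δhc array C (0.0528 and 0.0743). Gstm2 was lost without Stat3Δhc Mdr2-/- array B or C, any Stat3Δhc array, Stat3Fl/Fl Mdr2-/- array A or C, or Stat3Fl/Fl array C (0.0544 to 0.16).

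With Mdr2 loss in floxed liver, Gstm3, Gstm1 and Gsta3 were called without each array in turn. Gstp1 was lost without any Stat3Fl/Fl Mdr2-/- or Stat3Fl/Fl array, Stat3Δhc array A or B, or Stat3Δhc Mdr2-/- array A (adjusted p = 0.0504 to 0.159). Gsta4 was called without Stat3Fl/Fl Mdr2-/- array A or Stat3Δhc Mdr2-/- array C (0.0351 and 0.0354). In these 6 arrays the Xist pattern goes with the knockout, so sex and genotype cannot be told apart within them. With the covariate none of the 9 was called, where 0.73% of all genes were called (102, against 1785 without it). The changes were 1.08 for Gstm3, 1.16 for Gstm1, 0.48 for Gstp1 and -0.41 for Gsta3 (adjusted p = 0.221, 0.128, 0.494 and 0.394).

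Among the transferase clusters, the widest changes lay in those that Gsta2 shares with Gsta1, Gm3776 and Gm10639. Gsta1 and Gsta2 encode Alpha enzymes that conjugate electrophiles and reduce organic peroxides. These clusters are outside the rule for a gene's own cluster and were taken up after their values were seen. Their signal cannot be assigned to 1 of the 4 genes, and since they share an annotation they are not independent of each other. They were fitted with the tested genes in a table of 13984 features.

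In the first of them (10587323), the log2 signal was 9.80, 9.98 and 9.36 in Stat3Δhc Mdr2-/- arrays, against 6.18, 6.06 and 6.66 in Stat3Fl/Fl Mdr2-/- arrays. It was 7.16, 6.99 and 7.38 in Stat3Δhc arrays, against 5.47, 5.66 and 5.95 in Stat3Fl/Fl arrays. No genotype overlapped with another, and the double mutant stood far above the rest. In the cluster of the smallest range (10587339), the means were 9.08 ± 0.14 in Stat3Δhc Mdr2-/-, 6.21 ± 0.32 in Stat3Fl/Fl Mdr2-/-, 6.98 ± 0.14 in Stat3Δhc and 6.05 ± 0.06 in Stat3Fl/Fl liver (SD, n = 3 each), and the 2 floxed genotypes overlapped.

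Over the 4 clusters, Stat3 deletion on the knockout raised the log2 signal by 2.88 to 3.41 (SE 0.14 to 0.19, adjusted p = 2.22e-07 to 4.13e-07). Without the knockout it raised it by 0.94 to 1.48 (adjusted p = 0.00144 to 0.00458). The difference of the 2 effects was 1.79 to 2.02 and passed in all 4 (SE 0.20 to 0.26, adjusted p = 0.00336 to 0.0181). In 10587323 that difference was lost without Stat3Δhc Mdr2-/- array B, Stat3Fl/Fl Mdr2-/- array A, Stat3Δhc array A, or Stat3Fl/Fl array B or C (adjusted p = 0.0529 to 0.0722). With the sex pattern as a covariate it was also lost in 10587323 (2.02, SE 0.33, adjusted p = 0.0614), and it passed in the other 3 (1.85 to 2.11, adjusted p = 0.0251 to 0.0311). Mdr2 loss raised the signal by 2.04 to 2.54 in Stat3Δhc liver (adjusted p = 1.19e-06 to 2.95e-06). In floxed liver the changes were 0.16 to 0.61 (adjusted p = 0.0506 to 0.525). With the same covariate, Stat3 deletion on the knockout gave 2.94 to 3.50 (adjusted p = 2.84e-05 to 5.39e-05).

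**Figure D4:**
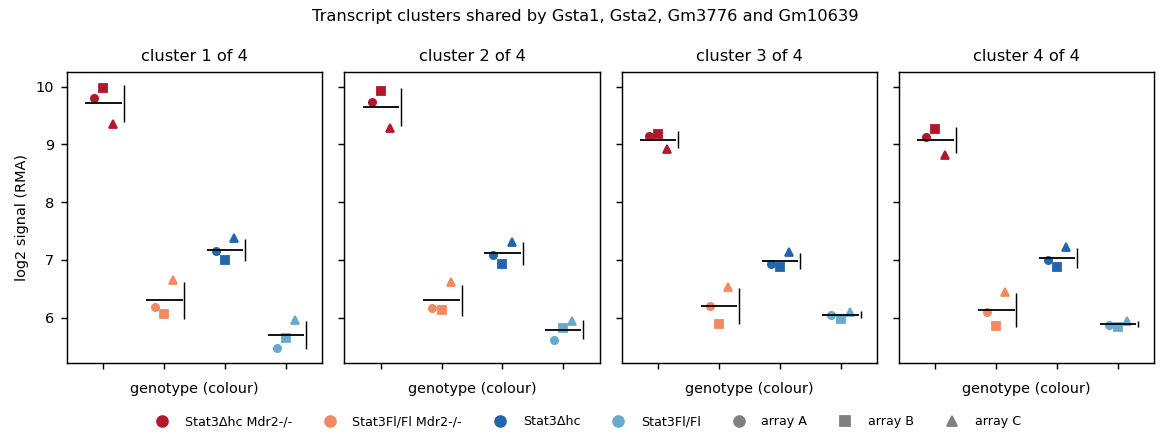
Log2 signal (RMA, y axis) of the 4 clusters annotated jointly to Gsta1, Gsta2, Gm3776 and Gm10639 (panels) in the 4 genotypes (colour, x axis), with array letters as symbols, the mean as a horizontal bar and ± 1 SD as a vertical bar. In each panel the 3 Stat3Δhc Mdr2-/- arrays lie above the other 9, and Stat3Δhc liver lies above both floxed genotypes.

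Correlations over the 12 arrays, whose points share genotype, describe which genes varied together. Gstm1 and Gstm3 had Pearson's r = 0.97, and Gstm2 and Gstt1 0.88. Gstm6 had 0.80 with Gstm4 and 0.78 with Gstm2, but 0.10 with Gstm1 and 0.01 with Gstm3. Gstp1 ran against Gstm4 (-0.70) and Gstm6 (-0.66). The genes most like Gstm6 were Pygl (0.98), the liver glycogen phosphorylase, Smpd2 (0.96), a neutral sphingomyelinase, Shpk (0.96), the kinase of sedoheptulose, Kdm1b (0.95), a histone demethylase, Cbs (0.94), the first enzyme of transsulfuration, and Map2k3 (0.94), a kinase upstream of p38. The lowest values were those of Arhgap9 and Cttnbp2nl (both -0.95) and Pla2g6 (-0.94), a phospholipase A2.

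The counts in the gene lists below stand against the shares of all genes called: 1.87% up and 3.9% down with Stat3 deletion on the knockout, 1.51% and 1.07% without it, 6.9% and 10.5% with Mdr2 loss in Stat3Δhc liver, and 7.12% and 5.65% in floxed liver. In lists of this size, 1 call with Stat3 deletion and 1 or 2 with Mdr2 loss are near these shares and are no result about the list. Among the other transferases, 14 of 19 listed genes were tested. Stat3 deletion raised 4 on the knockout, among them Gstt2 (1.19), the microsomal Mgst3 (0.83) and Gstm7 (0.56), with adjusted p = 0.00185, 0.0172 and 0.00344. Without the knockout it raised 3, the Theta gene Gstt3 (1.35), the Omega gene Gsto1 (0.63) and Gstm7 (0.59), with adjusted p = 0.00119, 0.0131 and 0.003. None fell in either. Mdr2 loss in Stat3Δhc liver raised 2 and lowered 3, among them Gstt2 (0.64), Gstt3 (-1.01) and Gsto1 (-0.51), with adjusted p = 0.0132, 0.00172 and 0.00905. In floxed liver it called none of the 14. Of them 4 had an unadjusted p under 0.05, near the share over all genes (3627 of 13977), so this is no result about the list. The medians over the 14 were 0.44, 0.09, 0.06 and -0.15 in these 4 comparisons.

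The list of genes that make and recycle glutathione also holds genes that do neither, such as Gnmt. It included 20 genes that were tested. Of these 1 rose and 1 fell with Stat3 deletion on the knockout, and 2 rose without it. Gnmt, which uses S-adenosylmethionine to methylate glycine, rose in both (1.02 and 1.28, adjusted p = 0.0489 and 0.0309), and Cbs rose without the knockout (0.44, adjusted p = 0.0477). The peptidase Anpep fell on it (-0.30, adjusted p = 0.0446). With Mdr2 loss in Stat3Δhc liver, glutathione synthetase Gss (0.51) and Gclm (0.38), the regulatory subunit of the rate-limiting enzyme, rose and Cbs fell (-0.49), with adjusted p = 0.00488, 0.00798 and 0.00771. In floxed liver Gss (0.43) and glutathione reductase Gsr (0.40) rose (adjusted p = 0.0151 and 0.00499).

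Of 17 glutathione peroxidases and thiol reductases, 1 rose with Stat3 deletion in each background, the glutaredoxin Glrx (0.74 on the knockout and 0.59 without it, adjusted p = 0.00903 and 0.0376). Mdr2 loss in Stat3Δhc liver raised Gpx3 (0.59) and the lipid peroxidase Gpx4 (0.24) and lowered Txnrd2 (-0.49), with adjusted p = 0.023, 0.0351 and 0.00146. In floxed liver it raised Txnrd1 (0.46), the peroxiredoxin Prdx2 (0.29) and Gpx4 (0.29), with adjusted p = 0.0119, 0.0297 and 0.0194.

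Of 11 genes of conjugate export and mercapturate formation, none passed with Stat3 deletion on the knockout. Without it, the basolateral exporter Abcc3 rose (1.43) and the cysteine conjugate lyases Kyat3 (-0.85) and Kyat1 (-0.53) fell, with adjusted p = 0.000576, 0.0117 and 0.0298. The difference of the Stat3 effects passed for Abcc3 (-1.38, SE 0.22, adjusted p = 0.0387), 1 of the 8 genes called down in that test. With Mdr2 loss in Stat3Δhc liver 4 fell, among them Abcc3 (-0.68), Acy1 (-0.63) and Kyat1 (-0.52), with adjusted p = 0.00993, 0.0382 and 0.0083. In floxed liver Abcc3 rose (0.70) and Kyat1 (-0.80) and Acy3 (-0.42) fell, with adjusted p = 0.0098, 0.000691 and 0.0367.

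The Nrf2 list also holds Gclc, Gclm and Txnrd1 of the lists above, so the counts are not separate. Of its 20 tested genes, 2 rose and 1 fell with Stat3 deletion on the knockout and 1 rose without it. Ugdh, which makes the sugar donor of glucuronidation, rose in both (1.13 and 0.76, adjusted p = 0.0026 and 0.0232). The carboxylesterase Ces1g rose (1.22) and malic enzyme Me1 fell (-1.01) on the knockout (adjusted p = 0.00185 and 0.00492). Mdr2 loss raised 7 and lowered 1 in Stat3Δhc liver and raised 6 in floxed liver. Ephx1, the microsomal epoxide hydrolase, rose in both (1.48 and 1.25, adjusted p = 3.2e-06 and 1.33e-05).

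Of 16 xenobiotic receptors and targets, 3 rose and 1 fell with Stat3 deletion on the knockout, and 3 rose without it. Nr1i3, which encodes CAR, rose in both (0.75 and 0.63, adjusted p = 0.0101 and 0.0358), as did the sulfotransferase Sult1a1 (0.54 and 0.50, adjusted p = 0.00752 and 0.0158). Mdr2 loss raised 1 and lowered 4 in Stat3Δhc liver, with Cyp1a2 (-0.98), Ugt2b5 (-0.78) and Cyp2b10 (-0.60) among the falls (adjusted p = 0.000432, 0.000704 and 0.0473). In floxed liver it raised 3 and lowered 2, among them the pregnane X receptor gene Nr1i2 (0.60) and Ugt2b5 (-0.59), with adjusted p = 0.00233 and 0.00425. Apart from the other transferases, whose medians are given above, the list medians lay between -0.22 and 0.32. Over all genes they lay between -0.03 and -0.0042 in the same 4 comparisons.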

How the data were processed

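The authors deposited log2 signals made with RMA, as the submitters' processing notes record without a version. Samples were grouped by title. Of 35556 transcript clusters, 21789 name 1 gene and 1621 several. A gene was tested where 3 or more arrays put it over their own 40th percentile. Each comparison was a contrast in a linear model over the 12 arrays, with 8 residual degrees of freedom (limma 3.58.1 in R 4.3.3). Calls were made at 0.05 after Benjamini-Hochberg adjustment of limma's p-values. The number of arrays limits the precision: the median SE of a log2 change was 0.11. The fit was tested on simulated data. The members and gene lists were chosen with earlier results of these data known. At most 3 called genes of largest change were named per list and comparison. Alternatives were 2 filters, 2 scalings, the mean of a gene's clusters, array weights, eBayes with trend and robust settings, a fit of the compared groups alone, the letter as a block, the sex pattern as a covariate and leaving out each array. In deviations from the genotype means, 4 of 18 same-letter pairs of arrays correlated above 0.1 (range -0.41 to 0.37). Of 36 different-letter pairs 14 did (range -0.37 to 0.48). Between Stat3Δhc and Stat3Fl/Fl arrays, the same-letter pairs A, B and C had 0.27, 0.07 and 0.37, and different-letter pairs -0.35 to 0.18. Whether the letters mark a pairing cannot be told from these values. Probe-level files were not used here, so transcripts of similar paralogs may share signal. Figures were drawn with matplotlib 3.10.9.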

Additional observations from a re-analysis of the deposited data

Results flagged for a closer look

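The 4 transcript clusters annotated jointly to Gsta1, Gsta2, Gm3776 and Gm10639 lie outside the rule that took clusters of 1 gene, and they carried the widest changes among the transferase clusters. With Stat3 deletion on the Mdr2 knockout their log2 changes were 3.413, 3.34, 2.877 and 2.938 (clusters 10587323, 10587331, 10587339 and 10595148) and the double mutant arrays lay above every floxed array in signal. In the same order, the effect of Stat3 deletion was larger on the knockout than without it by 1.93, 2.022, 1.94 and 1.795 on the log2 scale, and the test of that difference passed in all 4 (adjusted p = 0.0181, 0.00826, 0.00336 and 0.00826, limma). With the sex pattern, which is uneven across these groups, as a covariate, 10587323 missed the threshold (2.02, adjusted p = 0.0614) and the other 3 passed (adjusted p = 0.0251 to 0.0311). It also missed it without any 1 of 5 arrays (adjusted p = 0.0529 to 0.0722). The clusters were taken up after their values were seen, they share an annotation, and the signal cannot be assigned to 1 gene.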

How the results depend on the processing

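The number of the 9 transferases called changed with the arrays used, as did the number over all genes, given further below. Leaving out 1 array gave 1 to 4 for Stat3 deletion on the Mdr2 knockout, 1 to 6 without it, 0 to 1 for the difference of the effects, 3 to 6 for Mdr2 loss in Stat3Δhc liver and 3 to 5 in floxed liver. The fit of only the compared groups called 0 on the knockout, and 230 over all genes. The sex covariate called 0 there and 0 for Mdr2 loss in floxed liver, and 37 and 102 over all genes. Array weights called 2 for the difference, and 567 over all genes, with array A of Stat3Δhc liver given a weight of 9.01. With the letter as a replicate block, 2, 5, 0, 6 and 3 transferases were called in the 5 comparisons. Over all genes this fit called 473, 237, 3, 1865 and 1453. Why these counts moved, some of them in fits of fewer arrays, was not tested.

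Changes that turned direction were all uncalled. Gstm4 on the knockout was 0.0702 under cyclic loess and 0.0907 under array weights, and -0.15 to 0.0206 with 1 array left out. Gstp1 without the knockout was 0.0628 under array weights and -0.15 to 0.0207 with 1 array left out. The difference for Gsta4 was -0.0135 under median centring and -0.0382 to 0.13 with 1 array left out. With Mdr2 loss in floxed liver, Gstm2 was -0.0070 under cyclic loess, -0.25 with the sex covariate and -0.0464 to 0.19 with 1 array left out. There Gstm6 was 0.018 under array weights and -0.34 to 0.30 with 1 array left out. Gstt1 was 0.019 under array weights, 0.105 with the sex covariate and -0.0738 to 0.089 with 1 array left out, and Gstm4 was 0.0463 with the sex covariate. The shared cluster 10587339 ranged from -0.0025 to 0.31 there.

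Over all genes, 806, 361, 10, 2431 and 1785 were called in the 5 comparisons. Leaving out 1 array gave 302 to 1475, 69 to 753, 0 to 64, 1156 to 2613 and 1105 to 2129, and the other settings gave 37 to 2298, 237 to 2955, 3 to 567, 1541 to 5830 and 102 to 2330. Scaling moved the share of rises: cyclic loess gave 477 rises of 947 calls on the knockout, against 261 of 806, and 4 of 11 for the difference, against 2 of 10. Median centring gave 249 of 346 without the knockout, against 211 of 361, and 725 of 2455 for Mdr2 loss in Stat3Δhc liver, against 964 of 2431. For the shared clusters, the difference in 10587323 missed the threshold in 6 of 20 settings, 5 left-out arrays and the sex covariate (adjusted p up to 0.0722), and the other 3 passed in all 20.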
